A study of Arabidopsis thaliana with 9 samples.

Results

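Genes that mark growing root hairs were read in RNA sequencing libraries of whole Arabidopsis thaliana seedlings. There were 9, chosen by locus as known root hair genes and all found among the 33518 genes of each table: EXPA7 (AT1G12560), EXPA18 (AT1G62980), PRP1 (AT1G54970), PRP3 (AT3G62680), COBL9 (AT5G49270), LRX1 (AT1G12040), LRX2 (AT1G62440), RSL4 (AT1G27740) and RHD6 (AT1G66470). In the TAIR10.1 annotation 7 lie on chromosome 1, PRP3 on chromosome 3 and COBL9 on chromosome 5. The libraries covered 3 genotypes: the wild type Col-0 (WT), aba2-1, a mutant impaired in abscisic acid (ABA) synthesis, and p5cs1-4, a mutant impaired in proline synthesis. Seedlings grew for 7 days on sugar-free agar and were moved for 96 h either to control agar at -0.25 MPa or to agar infused with polyethylene glycol at -1.2 MPa, which withdraws water from the plant (stress). Others went back to control agar for 10 h after such stress (release). Each of the 9 combinations was 1 library with no replicate, made from the pooled RNA of 3 experiments.

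Root hairs are tubular outgrowths of single epidermal cells of the root that take up water and nutrients. The bHLH factor RHD6 starts the hair and turns on RSL4, a related factor that drives its growth. The wall of the growing tip is loosened by the expansins EXPA7 and EXPA18 and built with the proline-rich proteins PRP1 and PRP3 and the leucine-rich repeat extensins LRX1 and LRX2. COBL9, a COBRA-like protein held at the cell surface by a lipid anchor, is needed for the hair to elongate. In whole seedlings the hair cells are a small share of the RNA, and in such bulk libraries fewer hair cells and less RNA per hair cell cannot be told apart.

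The stress and release labels went against marker genes. P5CS1, the stress-raised enzyme of proline synthesis, was highest in the library labelled release in each genotype, at 3918 CPM (read counts scaled to library size) in WT, 1389 in aba2-1 and 1199 in p5cs1-4, against 74.1 to 634 in the other 6 libraries. PRODH1, the proline-degrading enzyme that rises after release, was lowest in the same 3 libraries, at 20.1 to 33.6 CPM against 125 to 401. The dehydrin RAB18 was highest in the library labelled release in WT and p5cs1-4, but in the control in aba2-1. The S and R suffixes of the deposited tables also run opposite to the labels. The libraries are therefore called labelled stress and labelled release throughout, and each direction holds for the library so labelled. P5CS1, the gene altered in p5cs1-4, had 125 to 1199 CPM in the 3 libraries of that mutant. ABA2 had 15.6 to 20.3 CPM in those of aba2-1 and 17.0 to 22.0 in the other 6, so neither transcript checked the genotype labels. Reads assigned to genes ran from 4898426 in the WT control to 18273148 in the p5cs1-4 control.

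Of the 9 genes, 5 carried a match to the root hair element (RHE), a promoter element that was first described in EXPA7 and EXPA18 and that RSL4 is known to bind. The matches are shown because the genes that hold them also shared a pattern of levels, described further on. Genes without a match had that pattern too. The elements stand here in their own 5′ to 3′ direction, with the fixed letters of the consensus in capitals.
EXPA7: atagTGatccgCACGta
EXPA18: aacaTGaacgCACGtc
PRP1: atagTGttatgCACGat
PRP3: taagTGtaatgCACGat
LRX1: aactTGgacgCACGtt
In EXPA7 and EXPA18 the elements lay on the gene's strand, 78 to 62 and 40 to 25 bases before the annotated start. A second match in EXPA18 lay 5 to 21 bases from the start. In PRP1, PRP3 and LRX1 they lay on the opposite strand, 129 to 113, 167 to 151 and 93 to 78 bases before the start. The 250 bases before the start follow for the expansin and for the pair with the most reads, from the TAIR10.1 genome (RefSeq), each on the plus strand, which is the gene's strand, with the element in capitals.
EXPA7, chr1:4276255-4276504: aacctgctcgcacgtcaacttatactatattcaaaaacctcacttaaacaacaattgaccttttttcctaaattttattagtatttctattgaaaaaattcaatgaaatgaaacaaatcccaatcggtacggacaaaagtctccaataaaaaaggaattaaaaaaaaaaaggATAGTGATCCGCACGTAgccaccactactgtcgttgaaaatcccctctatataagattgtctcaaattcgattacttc
PRP3, chr3:23182472-23182721: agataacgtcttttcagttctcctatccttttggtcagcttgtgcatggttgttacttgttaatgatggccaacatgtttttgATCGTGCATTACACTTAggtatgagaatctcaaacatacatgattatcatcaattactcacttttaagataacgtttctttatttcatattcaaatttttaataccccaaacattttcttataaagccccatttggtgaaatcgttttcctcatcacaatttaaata
LRX1, chr1:4069742-4069991: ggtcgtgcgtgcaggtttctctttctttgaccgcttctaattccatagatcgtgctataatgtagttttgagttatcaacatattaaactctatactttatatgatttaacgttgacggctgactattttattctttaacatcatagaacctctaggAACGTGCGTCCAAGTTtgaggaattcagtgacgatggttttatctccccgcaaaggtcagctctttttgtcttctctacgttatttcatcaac

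**Figure D1:**
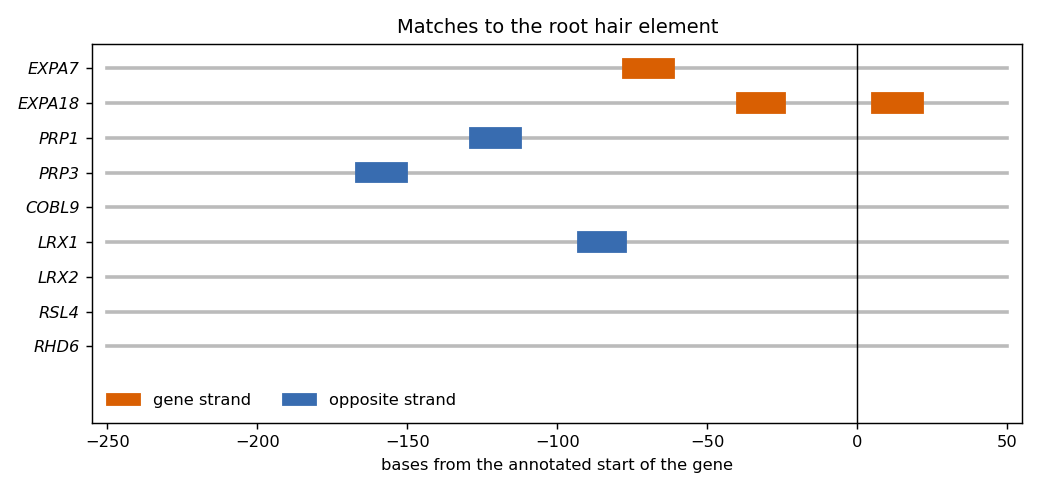
Matches to the root hair element in the window from 250 bases before to 50 bases after the annotated start of each gene. The x axis is the distance from the start in bases, and colour gives the strand; EXPA7, EXPA18, PRP1, PRP3 and LRX1 hold matches and the other 4 genes none.

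The search took both strands of the same window of 27443 protein-coding genes, of which 238 (0.867%) held a match. Matches in EXPA7 and EXPA18 are not independent of the consensus, which was drawn from them. COBL9, LRX2, RSL4 and RHD6 held none in this window. Of 14 other root hair cell wall genes 3 held a match, of 13 genes of the hair growth machinery 1, and of 8 other root hair regulators and 11 close relatives of the 9 genes none. The G-box CACGTG, a site of many bHLH and bZIP factors, was searched on both strands. It was in none of the 9 windows and in 7.68% of all. Both motifs hold CACG, but the last base of the RHE consensus is never G. The CACG of an RHE match thus cannot be part of a G-box.

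RHD6 was at 9.47 CPM (145 reads) in p5cs1-4 labelled release, its highest level. It was at 3.78 CPM in p5cs1-4 labelled stress and 0.648 in the p5cs1-4 control. In WT it had 0 reads in the control, which allows up to 0.699 CPM (3 reads), 1 read in labelled stress and 25 reads (2.87 CPM) in labelled release. The aba2-1 control, labelled stress and labelled release libraries held 1.49, 1.12 and 2.10 CPM. RHD6 was thus highest in the library labelled release in each genotype. The ratio of labelled release to control was 14.6-fold in p5cs1-4 (95% counting interval 7.93 to 29.9) and 1.41-fold (0.624 to 3.60) in aba2-1. In WT it was 4.11-fold with 3 reads set for the 0 of the control, and its counting interval began at 3.10.

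RSL4 was the lowest of the 9, with 95 reads in all 9 libraries, and reached 5 CPM in none. Its levels were 0.233, 0.132 and 1.03 CPM in WT control, labelled stress and labelled release, 0.745, 0.656 and 0.701 in aba2-1, and 0.354, 2.16 and 2.74 in p5cs1-4, in the same order. Its highest libraries were thus the 2 treated ones of p5cs1-4. Against its own control, p5cs1-4 labelled release was 7.76-fold higher (3.28 to 22.3) and p5cs1-4 labelled stress 6.11-fold (2.27 to 19.1).

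COBL9 was closer in pattern to these 2 factors than to PRP3 or LRX1. It was at 1.40, 0.395 and 3.10 CPM in WT control, labelled stress and labelled release, at 1.49, 1.87 and 1.79 in aba2-1, and at 1.12, 5.53 and 7.19 in p5cs1-4. The 2 p5cs1-4 libraries were again the highest, while the 3 aba2-1 libraries overlapped in their counting intervals. Across the 9 libraries the log2 levels of COBL9 and RSL4 had a Pearson r of 0.97, RSL4 and RHD6 0.96, and COBL9 and RHD6 0.91, against 0.61 for COBL9 and PRP3 and 0.62 for COBL9 and LRX1. These are descriptions over 9 libraries that share their scaling.

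EXPA7 was highest in p5cs1-4 labelled stress, at 11.7 CPM (87 reads), against 0.530 in the p5cs1-4 control and 5.88 in p5cs1-4 labelled release. The WT control had 0 reads, WT labelled stress 0.789 CPM and WT labelled release 2.99. The aba2-1 libraries, in the same order, had 4.10, 4.12 and 2.10 CPM. EXPA18 was at 0.233, 0.789 and 2.18 CPM in WT control, labelled stress and labelled release, at 4.84, 1.78 and 1.71 in aba2-1 and at 1.06, 7.29 and 3.07 in p5cs1-4. Both expansins were thus lowest in the WT control and highest in p5cs1-4 labelled stress. In p5cs1-4, labelled stress was above control by 22.1-fold for EXPA7 (11.1 to 50.03) and by 6.87-fold for EXPA18 (3.97 to 12.4).

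PRP3 had the highest level per length of the 9, with a median of 6.89 RPKM (reads scaled to gene length and library size, as deposited) and a range of 2.69 to 25.9. LRX2, EXPA7 and LRX1 followed with medians of 2.78, 2.75 and 2.64 RPKM, closer than the spread of any of them over libraries, and RSL4 was lowest at 0.615. PRP3 stood at 3.73, 4.21 and 8.50 CPM in WT control, labelled stress and labelled release, at 16.8, 7.96 and 3.35 in aba2-1 and at 3.83, 29.8 and 9.08 in p5cs1-4. PRP1 stood at 0.466, 0 and 2.30 CPM in WT, at 2.23, 2.997 and 1.48 in aba2-1 and at 1.71, 6.34 and 2.42 in p5cs1-4. Both proline-rich genes peaked in p5cs1-4 labelled stress, by 7.79-fold over the p5cs1-4 control for PRP3 (5.88 to 10.4) and 3.71-fold for PRP1 (2.29 to 6.12). The aba2-1 control was the second highest library of PRP3, 4.50-fold above the WT control (2.62 to 8.20).

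LRX1 had the widest range of CPM among the 9. It was at 1.16, 3.42 and 6.78 CPM in WT control, labelled stress and labelled release, at 19.9, 8.62 and 2.96 in aba2-1 and at 3.89, 31.8 and 12.2 in p5cs1-4. Its lowest library in WT was the control, in aba2-1 labelled release, and in p5cs1-4 again the control. The aba2-1 control was 17.1-fold above the WT control (7.11 to 53.8), where 5 reads were counted. LRX2, which acts together with LRX1 in the hair wall, was far flatter, between 3.81 CPM in WT labelled stress and 9.71 in p5cs1-4 labelled stress. The r of LRX1 was 0.96 with EXPA18 and 0.95 with PRP3, but 0.60 with LRX2, over the same 9 libraries.

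**Figure D2:**
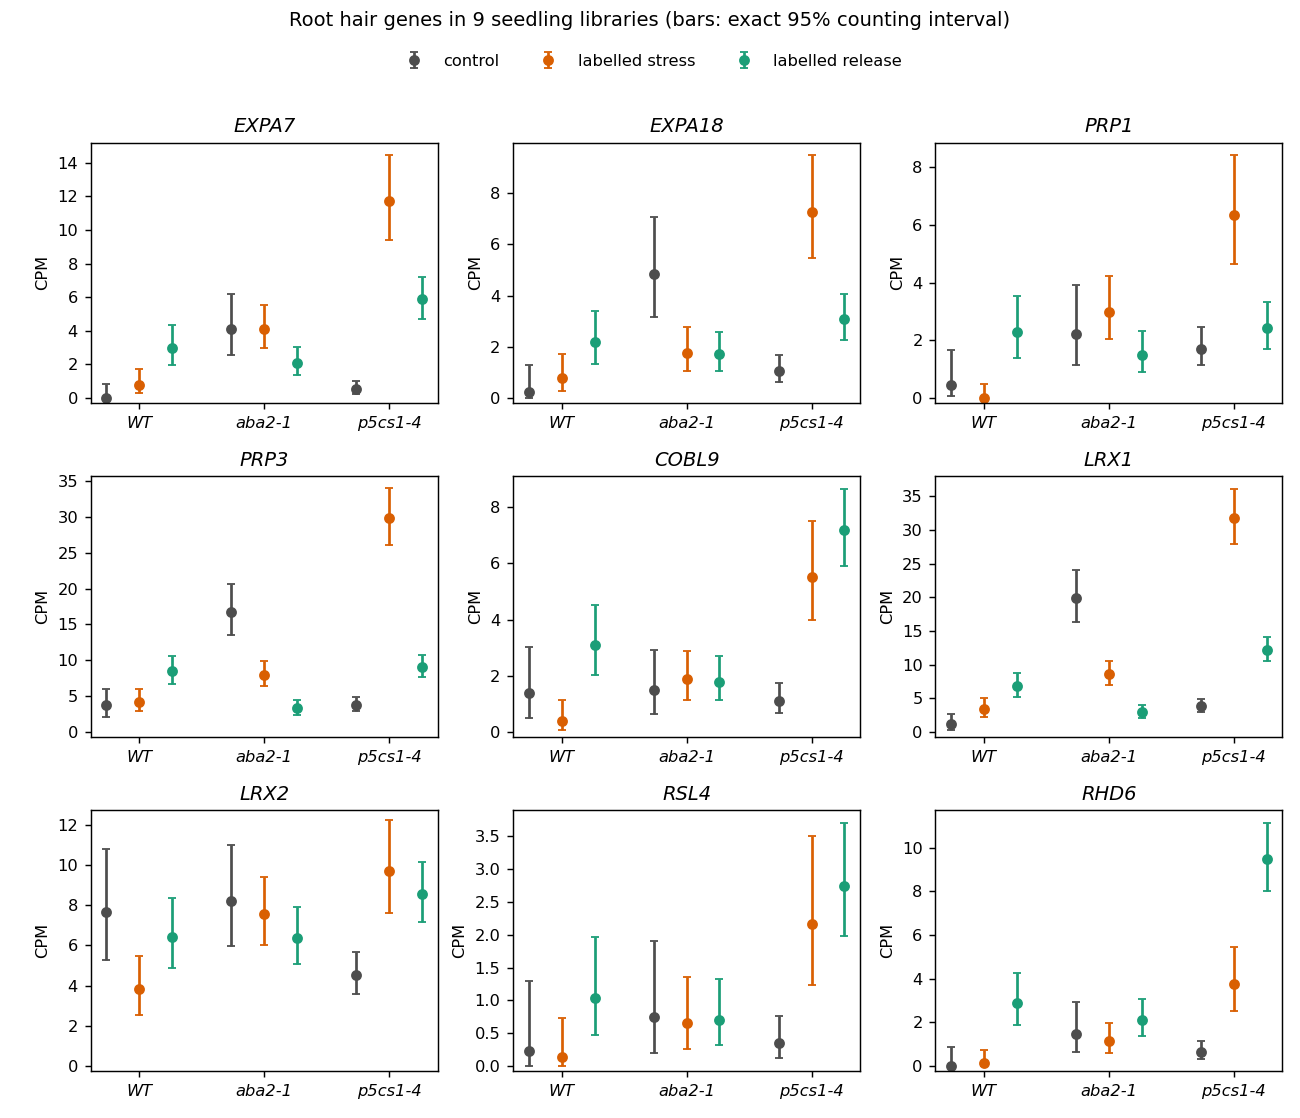
Level of each gene in CPM (y axis) in the 9 libraries, grouped by genotype and coloured by labelled treatment; points are single libraries and bars are exact 95% counting intervals. EXPA7, EXPA18, PRP1, PRP3 and LRX1 peak in p5cs1-4 labelled stress, while RHD6, RSL4 and COBL9 peak in p5cs1-4 labelled release and LRX2 stays between 3.81 and 9.71 CPM.

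The 5 genes with an RHE match and LRX2 were thus highest in p5cs1-4 labelled stress, and the 3 other genes without a match in p5cs1-4 labelled release. Most of the 14 other root hair cell wall genes, of which 3 held a match, were also highest in p5cs1-4 labelled stress. A peak there was thus not particular to genes with the element. A gene was counted as apart between 2 libraries when the log2 ratio of CPM + 1 was at least 1 (2-fold) and it reached 5 CPM in either, and the shares given beside the counts are over all genes that reached 5 CPM. With 1 library a group these ratios have no replicate check.

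In p5cs1-4, 6 of the 9 genes were higher in labelled stress than in control (EXPA7, EXPA18, PRP1, PRP3, COBL9 and LRX1), where 4.03% of all genes were, and none was lower. In that pair 7 of the 9 reached 5 CPM, and all 9 had a log2 ratio above 0, with a median of 1.62. In p5cs1-4 labelled release 5 of the 9 were higher than in control (EXPA7, PRP3, COBL9, LRX1 and RHD6), against 8.4% of all genes. Set against p5cs1-4 labelled stress, p5cs1-4 labelled release was lower for 4 of the 9 (EXPA18, PRP1, PRP3 and LRX1), against 6.21% of all genes, and higher for RHD6, against 5.98%. PRP3 was 3.28-fold lower (2.64 to 4.09) and LRX1 2.61-fold lower (2.14 to 3.18), while RHD6 was 2.51-fold higher (1.66 to 3.91).

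In WT, none of the 9 was apart between labelled stress and control, where 8.54% of all genes were. In WT labelled release 2 of the 9, PRP3 and LRX1, were higher than in control, against 12.7% of all genes. PRP3 was 2.28-fold higher (1.32 to 4.196) and LRX1 5.82-fold (2.36 to 18.6). Between the 2 treated WT libraries all 9 had the higher value under the release label, but none was apart by the rule, and 21.9% of all genes were. Only 1 of the 9 reached 5 CPM in labelled stress or control, and 3 in each pair with labelled release. Most were thus too low to be counted.

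In aba2-1 the counted changes were downward. LRX1 was lower in labelled stress than in control, by 2.31-fold (1.73 to 3.09), where 3.57% of all genes were lower. PRP3 and LRX1 were lower in labelled release than in control, by 5.002-fold (3.44 to 7.37) and 6.73-fold (4.61 to 10.0), against 5.62% of all genes. The same 2 genes were lower in aba2-1 labelled release than in aba2-1 labelled stress, against 5.64%. The falls from control rest on the aba2-1 control, as do the rises of PRP3 and LRX1 over the WT control. In that library RAB18 was at 252 CPM, against 31.4 in the WT and 22.4 in the p5cs1-4 control. P5CS1 was at 634 CPM there, against 195 and 125. The part of this library's state in these ratios was not tested. COBL9, RSL4 and RHD6 had log2 ratios of 0.17, -0.04 and 0.32 between labelled release and control, with counting intervals that include no change. EXPA18 stayed below 5 CPM in aba2-1 and so was not counted. It was lower than control by 2.72-fold (1.45 to 5.2) in labelled stress and 2.82-fold (1.54 to 5.23) in labelled release. EXPA7, also below 5 CPM, was 1.95-fold lower in labelled release (1.06 to 3.55).

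**Figure D3:**
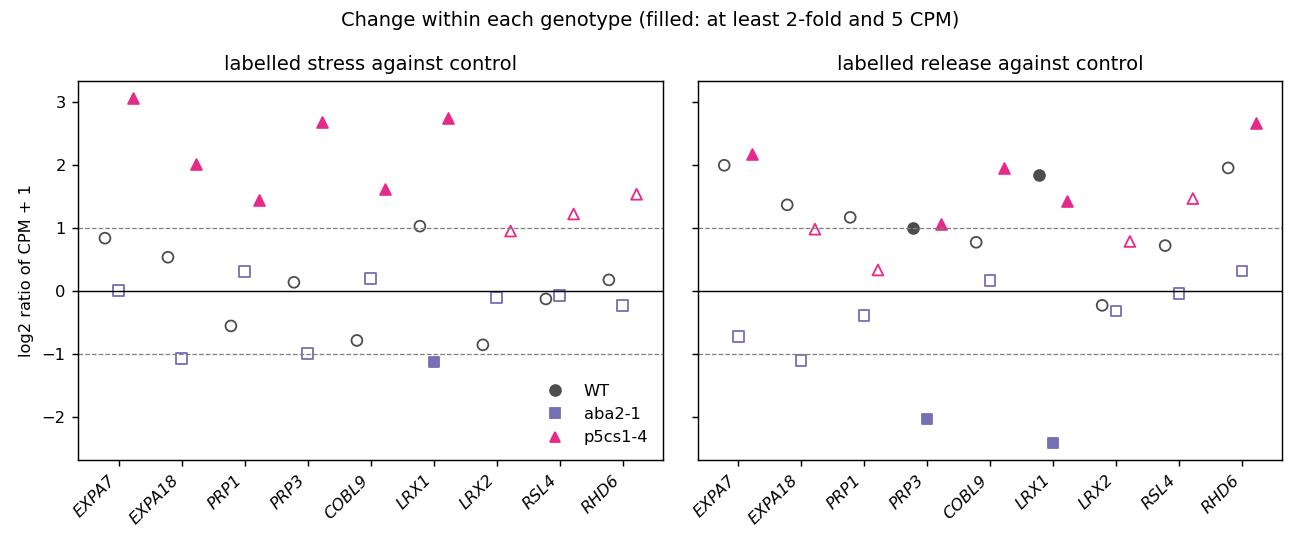
Log2 ratio of CPM + 1 of labelled stress (left) and labelled release (right) to the control of the same genotype for each gene. Filled symbols are at least 2-fold apart and reach 5 CPM in either library, and dashed lines mark 2-fold; the p5cs1-4 symbols lie above 0 for all 9 genes, while PRP3 and LRX1 lie below 0 in aba2-1.

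Between genotypes under the same label, p5cs1-4 labelled stress stood apart from WT labelled stress most, with 7 of the 9 higher (all but RSL4 and RHD6), against 5.94% of all genes. EXPA7 was 14.9-fold higher (6.56 to 41.6) and LRX1 9.31-fold (6.197 to 14.5). PRP1, with 0 reads in WT, was 16.1-fold higher with 3 reads set for the 0, and its counting interval began at 12.6. In labelled release only RHD6 was counted as higher in p5cs1-4 than in WT, by 3.30-fold (2.15 to 5.27), against 1.8% of all genes. On control agar none of the 9 was apart between p5cs1-4 and WT, where 6.51% of all genes were. Only 1 of the 9, LRX2, reached 5 CPM in that pair, so the rest were too low to be counted. PRP3 and LRX1 were higher in the aba2-1 control than in the WT control, against 8.13% of all genes, and LRX1 in aba2-1 labelled stress than in WT labelled stress, against 6.65%. PRP3 was lower in aba2-1 labelled release than in WT labelled release, by 2.54-fold (1.72 to 3.79), where 5.27% of all genes were. These comparisons share libraries, so their counts are not independent of each other.

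The WT control, the shallowest library, was also low in some other root genes. PIN2, an auxin carrier of the root tip, had 2 reads there (0.466 CPM) against 4.60 to 19.9 CPM in the other 8 libraries, and the endodermal factor MYB36 had 3 reads (0.699 CPM) against 1.59 to 8.23. Of 14 markers of other root cell types 5 had 0 reads in the WT control, among them the root cap genes SMB, BRN1 and BRN2, and 0 to 2 of the 14 in each other library. The summed level of the 14 ranged from 122 to 147 CPM over the 9 libraries. This sum was carried mostly by SCR, SHR and PHO1, which shoots also express, so it does not measure root RNA alone. The part of the low root genes of the WT control in the ratios against that library was not tested. In p5cs1-4 the 14 markers summed to 142 CPM in control and 147 in labelled stress, where the 9 root hair genes summed to 17.7 and 108. One by one, 11 of the 14 markers were above control in that pair, with a median log2 ratio of 0.42. Of the 14, 7 reached 5 CPM in that pair and 2 were higher by the counting rule, against 4.03% of all genes.

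Other genes of the hair wall had high levels in the same libraries. Of 14 further root hair cell wall genes, 9 were higher in p5cs1-4 labelled stress than in the p5cs1-4 control, against 4.03% of all genes. The other 5 did not reach 5 CPM. The summed level of the 14 was 21.2 CPM in control and 169 in labelled stress. Among them the peroxidase RHS19 was at 2.47 and 22.1 CPM, the xyloglucan-modifying enzyme XTH14 at 2.53 and 18.6 and the endoglucanase GH9C1 at 2.47 and 15.7. The aba2-1 control was the second highest library of this list, at 72.2 CPM. The 8 further root hair regulators summed highest in p5cs1-4 labelled release, at 65.9 CPM against 36.3 in p5cs1-4 labelled stress and 11.1 in the p5cs1-4 control. Of the 8, 4 were higher there than in the p5cs1-4 control, against 8.4% of all genes. Among the 4 were the bHLH factors LRL1, at 37.0 and 5.19 CPM, and LRL3, at 9.02 and 0.354. Of the 13 genes of the growth machinery 2 were higher in p5cs1-4 labelled stress than in control, against 4.03% of all genes. In p5cs1-4 labelled release 2 of the 13 were higher than in control, against 8.4%. In each pair 8 of the 13 reached 5 CPM. GL2, the factor that keeps non-hair cells from forming hairs, was highest in the WT control, at 23.1 CPM, and between 5.71 and 15.2 elsewhere. The other listed markers of non-hair epidermis did not share this. WER was lowest in the WT control, at 0.233 CPM, and MYB23 was highest in the p5cs1-4 control, at 4.89 CPM.

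**Figure D4:**
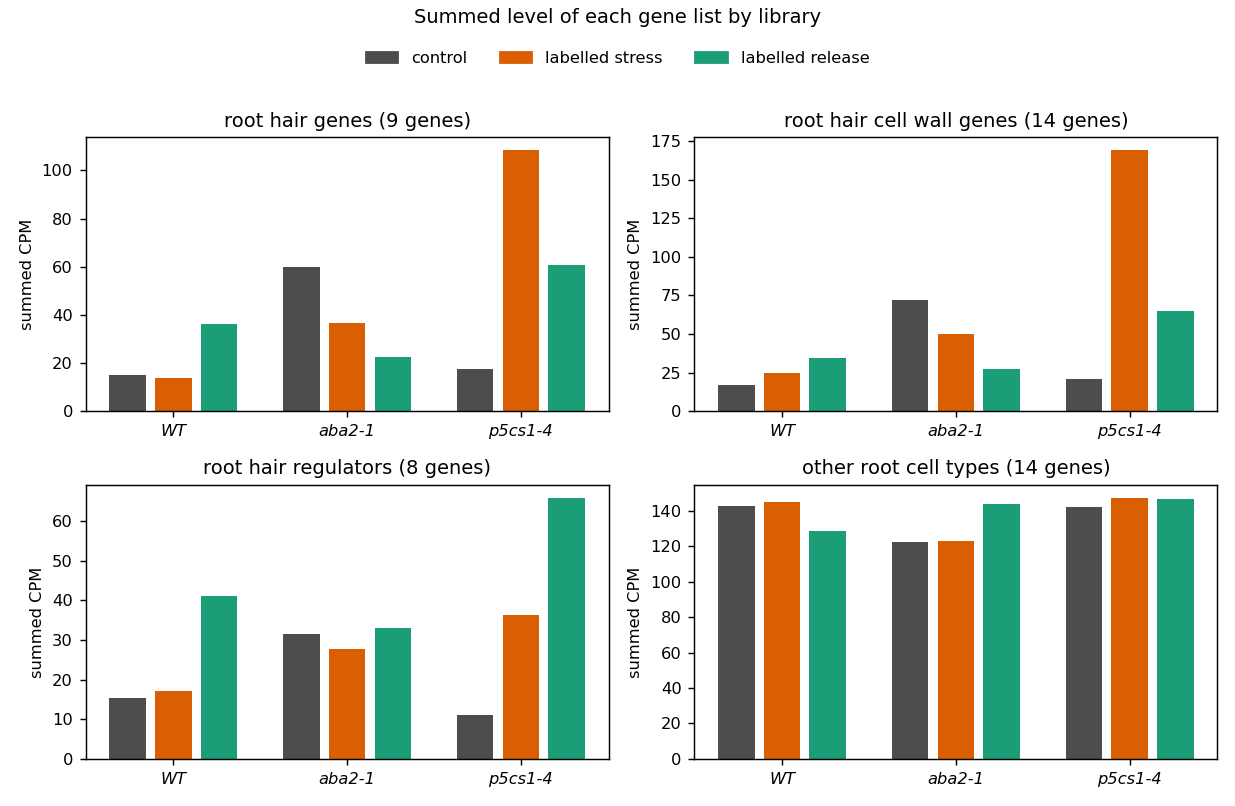
Summed CPM (bars, y axis from 0) of the 9 root hair genes, 14 further hair cell wall genes, 8 further hair regulators and 14 markers of other root cell types in the 9 libraries, grouped by genotype and coloured by labelled treatment. The hair wall genes are highest in p5cs1-4 labelled stress (169 CPM) and the regulators in p5cs1-4 labelled release (65.9 CPM). The other root markers range from 122 to 147 CPM, carried mostly by SCR, SHR and PHO1, which shoots also express.

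A model over all 9 libraries took treatment and genotype as additive terms, so that the libraries of one treatment stand in for replicates across genotypes. A treatment response that differs between genotypes counts as spread in this model. It was fitted to 19622 genes with edgeR's quasi-likelihood test and Benjamini-Hochberg adjustment. None of the 9 genes passed an adjusted p of 0.05 in any of its 5 contrasts, while 1.86% of all genes were higher and 3.94% lower in labelled release than in control. The share was 0.0% for labelled stress against control, 0.0% for aba2-1 against WT and 0.0% for p5cs1-4 against WT, and 1.51% higher and 2.16% lower for labelled release against labelled stress. With limma on log2 of the deposited RPKM + 1 the split over all genes turned, from 364 higher and 774 lower to 1280 and 612 in labelled release against control, and from 297 and 423 to 422 and 422 against labelled stress, while the median log2 fold of all genes went from 0.02 to 0.18 and from 0.02 to 0.05. At an unadjusted p under 0.05, RHD6 alone of the 9 passed, in labelled release against control, beside 5543 of the 19622 genes, and in p5cs1-4 against WT, beside 2124. DESeq2 called 1 of the 9, RHD6 in labelled release against control. RHD6 had a log2 fold of 2.86 ± 1.00 (SE, adjusted p = 0.119) and RSL4 of 1.80 ± 0.87 (adjusted p = 0.222) in labelled release against control. EXPA7 had 1.72 ± 1.22 (adjusted p = 0.389) and COBL9 1.44 ± 0.77 (adjusted p = 0.259). LRX1 and PRP3, which went opposite ways in the genotypes, had log2 folds of 0.12 ± 1.10 and -0.13 ± 0.92 there.

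These calls depended on aba2-1. Without its 3 libraries, edgeR called EXPA7 (log2 fold 4.32, adjusted p = 0.0244, range over alternatives 0.0244 to 0.806), RHD6 (4.48, adjusted p = 0.0175, range 0.0175 to 0.521) and LRX1 (2.19, adjusted p = 0.0466, range 0.0466 to 0.997) in labelled release against control, beside 1554 genes higher and 2302 lower of 19574. Without the aba2-1 control alone it called EXPA7 and RHD6, beside 1271 genes higher and 1730 lower of 19671. Without aba2-1 labelled release it called RHD6, beside 1083 higher and 1805 lower of 19562. In the model of all 9 libraries none of the further regulators (4 of 8 tested), growth machinery genes (13 of 13), hair cell wall genes (10 of 14) or epidermal patterning genes (8 of 10) passed in any contrast.

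Among close relatives, LRX3, PRP2 and PRP4 had medians of 118, 12.1 and 309 RPKM, above those of LRX1, PRP1 and PRP3, and all 3 fell in labelled release. Of the 11 listed, 9 were tested, and 5 fell in labelled release against control, beside the 3.94% of all genes that did. LRX3, an extensin of the LRX1 family, fell by 2.71 ± 0.24 on the log2 scale (adjusted p = 0.0142), from 416, 312 and 375 CPM in the WT, aba2-1 and p5cs1-4 controls to 44.0, 69.7 and 56.6 in labelled release. It was lower in all 3 genotypes. PRP2 fell by 2.47 ± 0.51 (adjusted p = 0.0399) and PRP4 by 2.16 ± 0.35 (adjusted p = 0.0253). The leucine-rich repeat family genes AT3G24480 and AT4G18670 fell by 1.83 ± 0.22 (adjusted p = 0.0147) and 1.27 ± 0.18 (adjusted p = 0.0192). COB, COBL7, COBL4 and COBL1 did not pass, with log2 folds of -0.56, -0.83, -0.05 and 0.81. Against labelled stress, LRX3, PRP2 and AT3G24480 fell as well, and these 3 calls ended without any 1 WT library, aba2-1 labelled stress or either treated p5cs1-4 library. Leaving out the WT control, WT labelled release, the p5cs1-4 control or p5cs1-4 labelled release each ended all 5 calls, with adjusted p up to 0.282 for LRX3 and 0.372 for PRP2. PRP2 also lost its call without any 1 labelled stress library, and PRP4 without that of aba2-1 or p5cs1-4. Whether the relatives differ from the 9 genes was not tested. RBCS1A, the small subunit of the carbon-fixing enzyme Rubisco of leaves, fell by 1.67 on the log2 scale in the same contrast (adjusted p = 0.0394). It kept the call in 7 of 17 alternatives, with adjusted p from 4.61e-08 to 0.409, and lost it without any 1 library other than the aba2-1 control or aba2-1 labelled release. Of the other shoot markers 5 were tested and did not pass; all 6 tested had log2 folds between -1.79 and -0.72 and an unadjusted p under 0.05, as 5543 of the 19622 genes did.

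**Figure D5:**
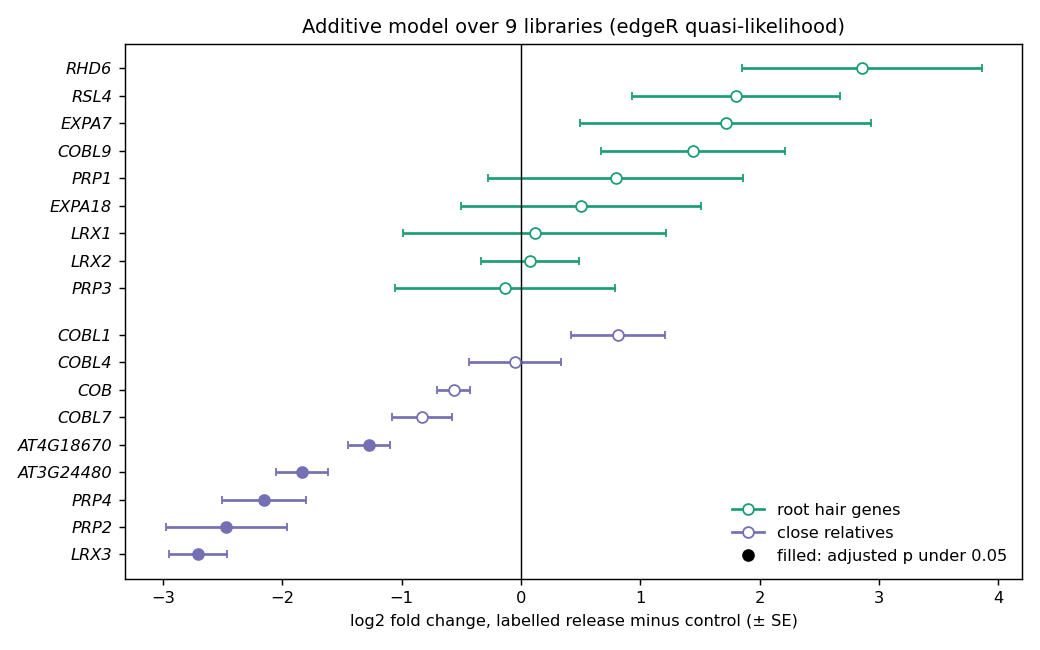
Log2 fold change of labelled release against control (x axis, ± SE) in the additive model for the 9 root hair genes and the 9 close relatives tested. Filled points pass an adjusted p of 0.05; the 5 that do are all relatives, between -2.71 and -1.27.

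Of 16033 other genes with a mean of at least 5 CPM, the 10 most like the mean profile of PRP3, LRX1 and LRX2, the 3 of the 9 with such a mean, were named by Pearson r over the 9 libraries. EXT10, an extensin, was the most alike (r = 0.98), between 4.999 and 76.8 CPM. The peroxidase RHS19 followed (0.96), then the extensin EXT6 (0.95), the extensin-like gene AT5G06630 (0.94), the peroxidase AT1G30870 (0.94) and the receptor-like protein RLP6 (0.93). The others were BETA-UP (0.93), RPT1A (0.93), the extensin-like gene AT3G54580 (0.92) and AT1G76400 (0.92). The r does not take in the size of the changes. BETA-UP ranged only from 31.9 to 49.5 CPM, RPT1A from 149 to 195 and AT1G76400 from 47.7 to 67.7. AT3G54580 ranged from 34.7 to 435 CPM. Reads that map to several places made up 24.2% of those of EXT6, 14.6% of AT5G06630 and 23.1% of AT3G54580, so their levels are uncertain. No read of the 9 root hair genes mapped to several places.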

How the data were processed

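Polyadenylated RNA of whole seedlings was sequenced in 9 libraries, each from RNA of 3 experiments pooled beforehand. Per the labels' protocols PCR ran for 18 cycles, and no molecular identifiers are described, so intervals cover counting error only. Per the file headers, each deposited table lists every gene's estimated count, its RPKM and, as a fraction, how many of its reads map to several places. CASAVA 1.6 and TAIR10 appear in the submitters' processing notes. Their role, the aligner, the counter and the strand setting are not given in the sources used here.

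Estimated counts were rounded and scaled to CPM with TMM factors (edgeR 4.0.16, R 4.3.3). Libraries were compared in 15 pairs by the log2 ratio of CPM + 1, with an exact 95% conditional interval of the fold, and 3 reads as the floor against 0. No p-value was computed for pairs. The additive model used genes with a mean of at least 1 CPM and had 4 residual degrees of freedom. It was also run on simulated counts with no genotype differences and less spread than these libraries had. That run does not check the model for data like these. With 1 library per combination, the model takes its spread from what the 2 additive terms leave over. This includes treatment responses that differ between genotypes. A gene with such a response thus gets a larger error, and not passing does not show that it was unchanged. Alternatives were DESeq2 1.42.0, median-of-ratios scaling, deposited RPKM (limma 3.58.1), reads assigned to 1 place, other floors, a pseudocount of 0.1, no filter, and leaving out each library or genotype. The genes and lists were chosen with earlier results of these data known. The RHE was searched by its consensus in windows of 250 bases before to 50 after each start (Biopython 1.88). Protein identity was not analysed here.

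All 9 genes are given in every library. Of 7 further lists, the text names up to 3 genes with the largest called change, each close relative that reached 5 CPM, and the 10 genes most like the mean profile. P5CS1, RAB18 and PRODH1 check the labels. XTH14, GH9C1, LRL1, LRL3, GL2, WER, MYB23, ABA2 and the named markers of other root cells were chosen after their values were seen. Locus tags matched the TAIR10.1 annotation for 32709 genes, and genes without a symbol there are given by locus.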

Additional observations from a re-analysis of the deposited data

Results flagged for a closer look

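PRP3 and LRX1 were counted as changed in opposite directions in different genotypes under the same pair of labels. Each genotype has 1 library a label, so the difference between genotypes was not tested. For labelled release against control, PRP3 had a log2 ratio of CPM + 1 of 1.01 in WT and 1.06 in p5cs1-4, but -2.03 in aba2-1. For the same labels LRX1 had 1.84 in WT and 1.43 in p5cs1-4, but -2.40 in aba2-1. For labelled stress against control LRX1 had -1.12 in aba2-1 and 2.75 in p5cs1-4.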

How the results depend on the processing

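No result turned to the opposite direction past its threshold under any alternative. Below the threshold directions were less stable. Additive-model folds of the 9 genes and their close relatives changed sign 119 times over the contrasts and alternatives, passing in neither fit. In the additive model, labelled release against control, the count of the 9 genes passing went from 0 to 1 with DESeq2 and to 3 without aba2-1, and ran from 0 to 2 when single libraries were left out. Over all genes DESeq2 called 1297 higher and 1990 lower there, where edgeR called 364 and 774, and 1120 and 1461 for labelled release against labelled stress, where edgeR called 297 and 423. For labelled stress against control it called 29 and 38, for aba2-1 against WT 241 and 281 and for p5cs1-4 against WT 82 and 77, where edgeR called 0. Leaving out single libraries took the 364 and 774 to between 0 and 1271 higher and between 0 and 1805 lower. Counts of the 9 genes apart between 2 libraries moved mostly with the floor. With no floor, WT labelled stress against control gave 1, WT labelled release 6 against control and 4 against labelled stress, aba2-1 labelled stress against control 2, the aba2-1 and p5cs1-4 controls against the WT control 6 and 1, and aba2-1 against WT labelled stress 4. With a floor of 20 CPM, the count was 2 for p5cs1-4 labelled stress against each of its control, WT labelled stress and p5cs1-4 labelled release, and 0 for every other pair that had a count. Median-of-ratios scaling gave 1 for WT labelled release against control. Deposited RPKM gave 1 there and 0 for aba2-1 labelled stress against control, labelled release against labelled stress, and labelled stress and release against WT. A pseudocount of 0.1 gave 2 for aba2-1 labelled stress against control and for labelled release of aba2-1 and of p5cs1-4 against WT. Reads assigned to 1 place gave 2 for the first and the last of these. The causes were not tested. No paired analysis by replicate number was possible because the labels give no replicate numbers, and the additive model already holds genotype as a term. At these depths a gene with 0 reads may have up to 0.699 CPM in the WT control.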
